A study of Mus musculus with 15 samples.

Results

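The 10 genes described here belong to the BCL2 family, which decides whether a cell keeps or loses the integrity of its mitochondria. They were Bcl2, Bcl2l1 (which encodes BCL-XL) and Mcl1, whose proteins hold death back, and 7 killer genes. Among the killers, Bax and Bak1 encode the effectors that perforate the outer mitochondrial membrane, and Bcl2l11 (BIM), Bbc3 (PUMA), Pmaip1 (NOXA), Bid and Bmf encode BH3-only proteins, which bind the survival proteins or switch on the effectors. The genes were chosen by name, out of 21000 protein-coding genes. A window was drawn around each, made of the RefSeq gene span and 50 kb on either side, and the 10 windows held 305 of the 122375 H3K27ac peaks in the list (0.249%). Each peak was placed in 1 class: promoter (within 2 kb of a start site), gene body, or flank.

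In healthy cells the survival proteins hold BH3-only proteins and activated effectors in check. Stress raises the BH3-only proteins, several of them through transcription: p53 activates Bbc3 and Pmaip1, and forkhead factors of the FOXO group activate Bcl2l11 and Bbc3. Acetylation of histone H3 at lysine 27 marks active promoters and enhancers, so a peak tells where the mark lies and not how much RNA or protein a gene makes.

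The data came from fusion-positive rhabdomyosarcoma (FP-RMS), a tumor with muscle features in which the fusion PAX3-FOXO1 is the driver. The series held 15 CUT&RUN libraries from tumors of 2 mouse models, and the only peak list used here belongs to the library MCP H3K27ac replicate 5, so there are no replicates and no p-values. The other 5 MCP and 3 TCP H3K27ac libraries were not used here. MCP tumors carried Myf6-Cre with Cdkn2a(Flox/Flox), Pax(3P3F/P3F) and R26-tdTom, so Cre from the Myf6 locus, which is active in myogenic cells, turned on the fusion, deleted Cdkn2a and labeled the cells. TCP tumors carried Tek-Cre, an endothelial driver, in place of Myf6-Cre. In both models Cre removes Cdkn2a, one product of which, ARF, normally stabilizes p53. Tumors were dissociated and live cells were sorted by FACS, with DAPI as the viability marker, before nuclei were prepared. The list is a sum over the cells of 1 tumor sample, and fewer cells carrying a mark cannot be told apart from less of the mark per cell.

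Marker genes of muscle, endothelium and immune cells were checked first, and a promoter peak was found at 45.6% of all protein-coding genes. A promoter peak was present at 1 of 8 myogenic markers (Myf6, whose locus carries Cre in this model), at 0 of 8 endothelial markers and at 1 of 8 immune markers (Cd68). Myod1, Myog and Pax7, which mark muscle progenitors or differentiating muscle cells, had none. Counting all classes, the myogenic windows ranged from 0 peaks at Myog and Pax7 to 28 at Myf5 and 36 at Myf6, with a median of 12.3 per 100 kb. Myf5 (chr10:107482908-107486134) and Myf6 (chr10:107492848-107494723) are neighbours whose windows largely overlap, so 1 peak can count for both. The endothelial median was 6.05, the immune median 1.84 and the median of all genes 5.61 per 100 kb. The median peak of the list had 13 fragments over its summit (quartiles 10 and 17), a number recovered from the fold and p columns, and a median fold enrichment of 5.22. Fold enrichment divides the signal at a peak's summit by the background estimated from IgG, with 1 added to each, as the caller computed it. The q is the peak's p adjusted over the list. Many peaks in the 10 windows had the same background of 1.055, and among those the fold only follows the fragment count.

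Of the 10 genes, 9 had at least 1 promoter peak, beside the 45.6% of all genes. Genes with several start sites have more promoter sequence to hold a peak, and the shares are not adjusted for this. Bcl2l1, Bbc3 and Bmf had 3 start sites, Bcl2l11 had 2 and the rest had 1. Bax was the exception without a promoter peak: its nearest peak lay 5572 bp from its start site. At least 3 promoter peaks were found at 5 genes (Bcl2l1, Bak1, Mcl1, Bbc3 and Pmaip1), against 23.8% of all genes. A gene body peak outside the promoter was found at 6 genes, against 32.2% of all genes. A peak over the start base itself was found at 1 gene, Bcl2l1, against 3.78% of all genes. With 1 library, these shares are a description and no difference from the other genes was tested.

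The promoter sequences of the survival genes with the most promoter peaks are shown to give the context of those peaks, with every CpG in capitals. They come from RefSeq (GRCm38.p6, which has the mm10 coordinates) and run from 250 bases before the start site to 50 after it, 5′ to 3′ on the gene's strand. The table held 16 start sites of 9 of the 10 genes.
Bcl2l1, inner start site, chr2:152828440-152828739, minus strand: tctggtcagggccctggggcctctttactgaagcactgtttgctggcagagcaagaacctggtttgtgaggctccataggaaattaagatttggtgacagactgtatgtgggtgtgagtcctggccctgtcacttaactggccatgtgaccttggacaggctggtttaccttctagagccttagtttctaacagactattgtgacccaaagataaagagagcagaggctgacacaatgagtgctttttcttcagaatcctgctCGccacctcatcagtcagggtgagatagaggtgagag
Bcl2l1, outer start site, chr2:152831679-152831978, minus strand: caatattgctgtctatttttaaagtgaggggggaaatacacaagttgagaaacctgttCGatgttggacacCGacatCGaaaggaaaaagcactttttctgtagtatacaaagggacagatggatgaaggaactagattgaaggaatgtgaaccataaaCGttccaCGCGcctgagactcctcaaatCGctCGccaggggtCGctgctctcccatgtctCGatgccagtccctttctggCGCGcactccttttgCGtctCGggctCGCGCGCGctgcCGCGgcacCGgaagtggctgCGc
Mcl1, chr3:95658471-95658770, plus strand: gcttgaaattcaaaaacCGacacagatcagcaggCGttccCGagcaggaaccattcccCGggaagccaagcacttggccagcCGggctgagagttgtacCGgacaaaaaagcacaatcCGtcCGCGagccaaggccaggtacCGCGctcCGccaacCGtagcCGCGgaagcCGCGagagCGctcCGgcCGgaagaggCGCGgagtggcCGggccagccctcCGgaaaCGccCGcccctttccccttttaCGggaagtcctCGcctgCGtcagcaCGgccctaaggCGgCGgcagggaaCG
The inner Bcl2l1 start site was the one covered by a peak, although its promoter held only 1 CpG. The outer one held 22 CpG and the Mcl1 promoter 33. The ratio of observed to expected CpG was 0.0558, 1.07 and 1.02 in these promoters, beside a median of 0.384 over 32851 promoters.

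The promoters of killer genes that carried no peak, a weak peak or a forkhead match are shown next, with matches to 4 of the searched motifs in capitals. These were the forkhead motif TGTTTAC, the myogenic E-boxes CAGCTG and CAGGTG, the AP-1 motif TGANTCA and the p53 decamer, on both strands. The GC box GGGCGG, which SP1 binds, was also searched and is left in lower case.
Bax, chr7:45466849-45467148, minus strand, 1 p53 decamer: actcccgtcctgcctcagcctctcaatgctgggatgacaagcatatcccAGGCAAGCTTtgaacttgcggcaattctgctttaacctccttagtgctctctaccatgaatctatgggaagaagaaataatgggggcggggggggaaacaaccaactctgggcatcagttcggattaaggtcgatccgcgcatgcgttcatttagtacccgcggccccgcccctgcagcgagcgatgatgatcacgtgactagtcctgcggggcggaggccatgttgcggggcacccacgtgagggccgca
Bcl2l11, outer start site, chr2:128125788-128126087, plus strand, 1 forkhead match and then 1 E-box: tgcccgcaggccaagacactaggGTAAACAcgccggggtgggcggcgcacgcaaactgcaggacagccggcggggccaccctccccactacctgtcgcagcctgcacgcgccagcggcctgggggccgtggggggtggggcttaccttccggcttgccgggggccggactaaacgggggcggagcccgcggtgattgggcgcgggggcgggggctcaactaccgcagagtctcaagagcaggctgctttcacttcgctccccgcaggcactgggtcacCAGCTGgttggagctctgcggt
Bbc3, second start site, chr7:16310011-16310310, plus strand, 2 E-boxes and then 1 forkhead match: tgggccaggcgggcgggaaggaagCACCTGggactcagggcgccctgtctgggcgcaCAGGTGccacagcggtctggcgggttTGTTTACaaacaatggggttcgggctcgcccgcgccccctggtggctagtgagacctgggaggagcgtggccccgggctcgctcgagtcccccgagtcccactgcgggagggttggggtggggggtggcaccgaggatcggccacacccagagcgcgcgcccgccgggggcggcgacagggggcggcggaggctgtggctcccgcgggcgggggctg
Among the 16 member promoters, the forkhead motif was found in these 2, in Bcl2l11 and Bbc3 (12.5%, Wilson 95% interval 3.498 to 36.0%), and in 3.65% of all 32851 promoters. E-boxes were found in 6 of 16 member promoters and in 32.95% of all. The p53 decamer was found in 2 of 16, in Bax and Bmf, and in 8.36% of all. The GC box was found in 10 of 16 (62.5%, 38.6 to 81.5%) and in 35.7% of all, with 3 matches in the Bax promoter, 3 in the outer Bcl2l11 promoter and 4 in the Bbc3 promoter shown. Start sites of 1 gene can share bases, as those of Bbc3 do. Pmaip1 was not in the promoter table, so its promoter was not searched. Bax and Bcl2l11 both had CpG-rich promoters, with ratios of 0.771 for Bax and 0.719 and 0.940 for the 2 start sites of Bcl2l11. A match is only a run of letters in the window, and no binding was measured.

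Mcl1 had the densest window of the 10 genes and Bcl2l11 the sparsest. Per 100 kb of window, Mcl1 had 51.7 peaks (exact Poisson 95% interval 38.8 to 67.5), Bcl2l1 had 41.6 (32.6 to 52.4) and Bcl2 had 11.2 (7.63 to 15.9). Among the killers, Bak1 had 42.3 (30.95 to 56.4), Pmaip1 34.6 (24.4 to 47.7), Bbc3 26.7 (17.9 to 38.3), Bid 16.2 (9.88 to 24.97), Bax 8.56 (3.91 to 16.2), Bmf 4.96 (1.82 to 10.8) and Bcl2l11 0.733 (0.0186 to 4.08). The median of 21000 genes was 5.61 peaks per 100 kb, with quartiles at 0.896 and 12.5. In the order from Mcl1, Bak1 and Bcl2l1 down to Bmf and Bcl2l11, the intervals of each gene and the next overlapped. Overlap of intervals is not a test, and the order was not tested. Compared with the 1 Mb around them, 7 of the 10 windows were denser, and Bcl2, Bax and Bcl2l11 were sparser, with 26.7, 13.0 and 10.0 peaks per 100 kb around them. Copy number in this tumor was not measured, and its part in these densities was not tested. The intervals of densities, and all others here, cover counting error only. They take peaks as independent, but nearby peaks can be pieces of 1 marked stretch, so counts also depend on how the caller split it. The 54 Mcl1 peaks, for example, formed 1 run when gaps of up to 12.5 kb were joined.

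**Figure D1:**
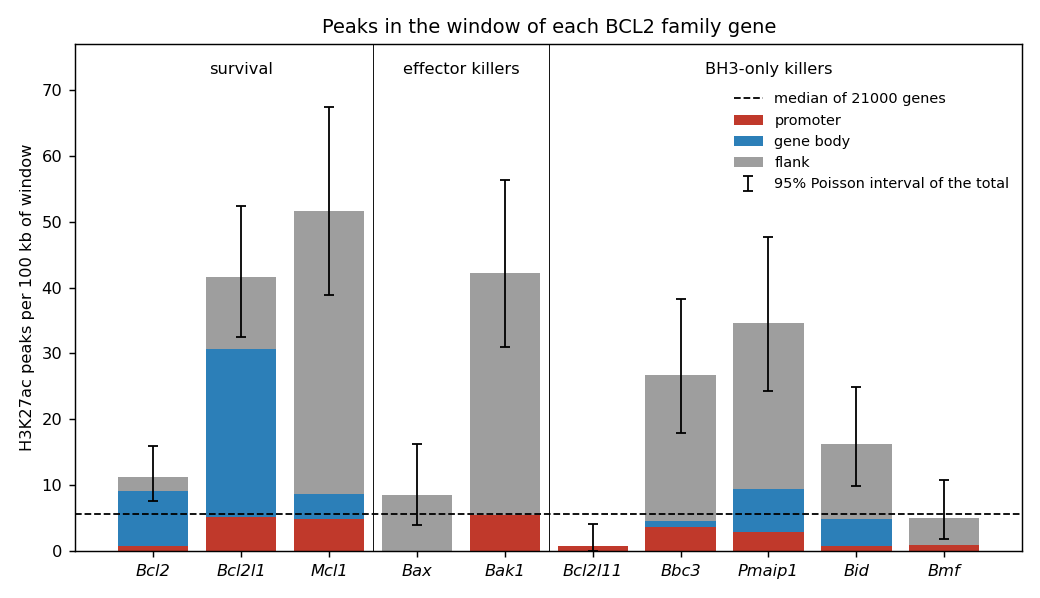
H3K27ac peaks per 100 kb of window (y axis) in each of the 10 genes (x axis), stacked by class, with exact Poisson 95% intervals of the total and the median of 21000 genes as a dashed line at 5.61. Mcl1, Bak1 and Bcl2l1 stand above 40 peaks per 100 kb, whereas Bcl2l11 and Bmf lie under the dashed line.

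**Figure D2:**
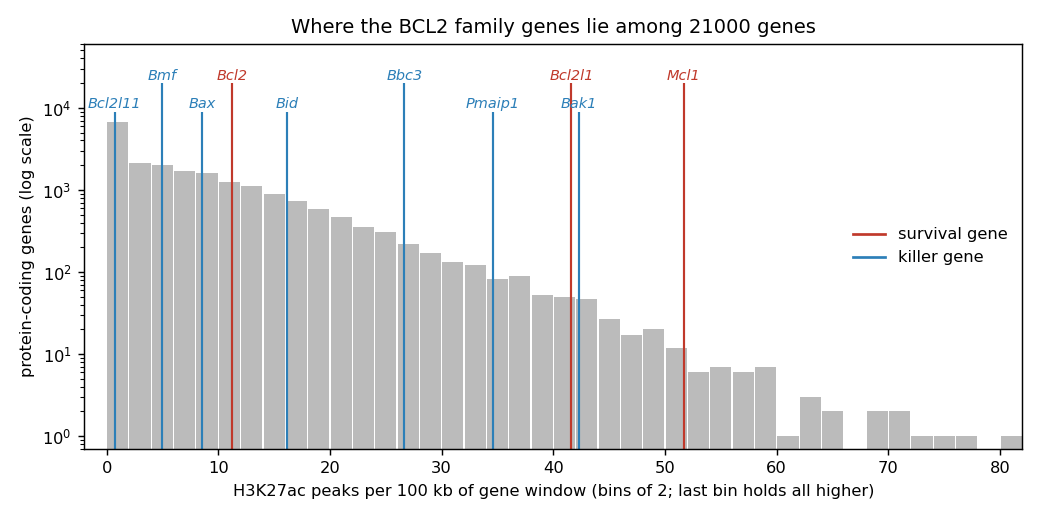
Number of protein-coding genes (y axis, log scale) by H3K27ac peaks per 100 kb of window (x axis, bins of 2), with the 10 genes marked by lines, survival genes in red and killers in blue. Mcl1 was denser than 99.8% of the genes, and the 2 colors interleave along the axis.

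Taken as groups, the 3 survival genes held 157 peaks and the 7 killers 148. Pooled density was 28.4 peaks per 100 kb in survival genes (24.1 to 33.2) and 18.3 in killers (15.4 to 21.4), a difference of 10.1. The genes of the groups overlapped widely, from 11.2 to 51.7 for survival and from 0.733 to 42.3 for killers, and Bak1 and Pmaip1 were denser than Bcl2. The difference also rested on single genes. It was 4.08 without Bcl2l1, 4.68 without Mcl1 and 27.2 without Bcl2, an alternative chosen after seeing the data. Gene bodies held 71 survival and 13 killer peaks (28.0 and 11.7 per 100 kb of gene span), and flanks had densities of 23.3 and 17.0 per 100 kb. Gene span includes the promoter stretch inside the gene, where no body peak is counted, which lowers the body density of short genes most. Bcl2l1 held 44 of the 71 body peaks, and without it the body densities were 14.95 and 11.7. Without Mcl1 the flank densities turned, to 12.5 in survival genes and 17.0 in killers. The highest gene body density of the 10 was that of a killer, Pmaip1, with 100.6 peaks per 100 kb, from 7 peaks in 6.955 kb. Mcl1 was next, at 89.7 from 4 peaks in 4.459 kb, and such small counts leave wide counting error. Genes are not replicates of a condition, and the difference between the groups was not tested.

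The strength of the peaks did not separate the groups. The median fold was 5.34 in both survival and killer windows, with quartiles of 4.54 and 6.56 in survival windows and 4.45 and 6.52 in killer windows. A fold of at least 10 was reached by 7 of 157 survival peaks and 6 of 148 killer peaks (4.46% and 4.05%), and by 4.32% of the whole list. The median of the strongest promoter fold was 7.11 over the survival genes (5.93 to 7.999) and 5.65 over the 6 killers with a promoter peak (3.93 to 8.24), a difference of 1.46. This difference was reversed, at -0.248, when only the strongest 25% of the peaks were kept.

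Promoter peaks made up 32 of the 305 peaks, or 10.5% (Wilson 95% interval 7.53 to 14.4%), beside 21.9% of the whole list. The windows reach 50 kb beyond the genes, which sets the member share in part: it was 20.1% with 10 kb flanks. Gene bodies held 84 peaks (27.5%), of which 77 lay in introns and 7 in exons, and flanks held 189 (62.0%). Of the flank peaks, 39 lay at the promoter of another gene, as did 9 body peaks of Bcl2l1 (Gm32211) and 1 of Bcl2 (Mir3473f). By the whole-list rule these would count as promoter peaks. The median summit at a promoter lay 594 bp from the start site, and 20 summits lay downstream of it and 12 upstream. The promoters of these genes spanned percentiles 3.84 to 63.3 of the strongest promoter fold among genes with a promoter peak. The strongest promoter fold exceeded the all-gene median of 7.24 at 3 of 9 genes (Bcl2l1, Bak1 and Pmaip1).

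**Figure D3:**
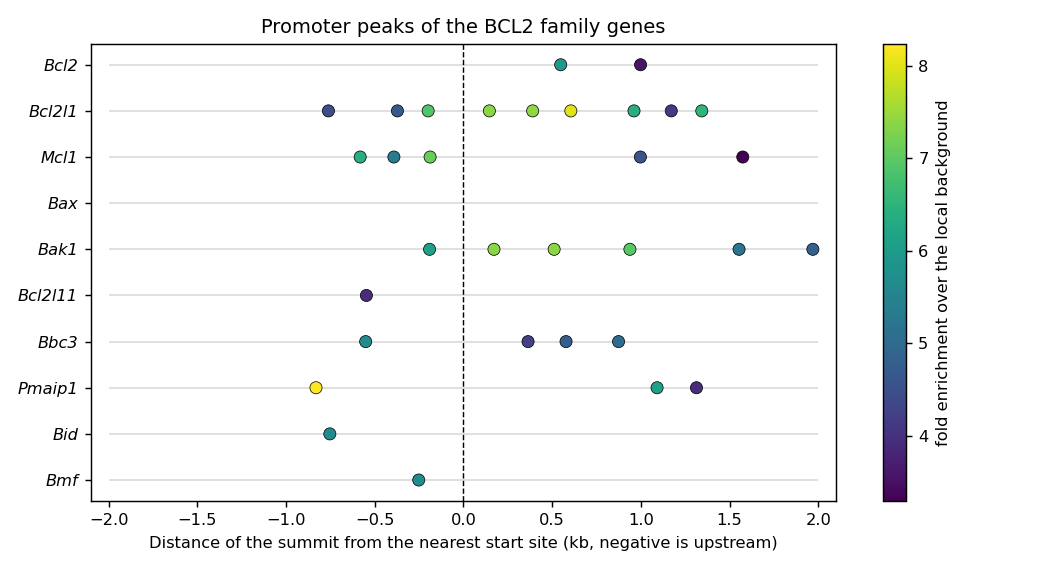
Distance of each promoter peak's summit from the nearest start site in kb (x axis) for the 10 genes (rows), colored by fold enrichment. Bcl2l1 has 9 promoter peaks on both sides of its start sites and Bax has none.

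Mcl1 encodes a short-lived survival protein that cells must keep making. Its gene at chr3:95658721-95663179 spans only 4.46 kb, and it had 5 promoter peaks, 4 body peaks and 45 flank peaks. Of the flank peaks, 39 lay downstream and 6 upstream. The strongest promoter peak had its summit 188 bp before the start site, with a fold of 7.11 and 23 fragments (14.6 to 34.5). The strongest peak of the window, 4727 bp upstream, reached a fold of 10.8 with 24 fragments. Another 3 flank peaks, 8.97, 10.1 and 16.2 kb downstream, had folds of 10.2, 10.6 and 10.7. With gaps of up to 12.5 kb joined, the 54 peaks formed 1 run of 59.3 kb, ranked 306 of 22564 runs by fold times width, summed over the peaks. Within that run, 6 flank peaks lay at the promoter of Adamtsl4.

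Bcl2l1 encodes BCL-XL, the survival protein that blocks BAX and BAK. The gene at chr2:152758732-152831728 had 9 promoter peaks, 44 body peaks and 19 flank peaks, the highest total of the 10 genes. All 44 body peaks lay in intron 2. The strongest of them was 3028 bp wide, at chr2:152804129-152807156, 22.6 kb from the start site, with a fold of 10.6 and 24 fragments (15.4 to 35.7), and its edge overlapped the promoter window of the pseudogene Gm32211, which lies inside the intron. At the promoter the highest fold was 7.999, with 26 fragments. A peak 942 bp wide covered the inner start site, whereas the other 2 start sites were covered by none. The flanks included 3 peaks at the promoter of Id1, an inhibitor of myogenic E-box factors, and 9 peaks in Tpx2, a spindle gene. The 53 peaks from intron 2 to the promoter formed a run of 48.5 kb, ranked 164.

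Bcl2 is the founding survival gene of the family. Its gene is much longer, 176 kb at chr1:106538176-106714290, and had 2 promoter peaks, 23 body peaks and 6 flank peaks, so its density of 11.2 per 100 kb was the lowest of the survival genes. All 23 body peaks lay in intron 1. The promoter peaks were modest, with folds of 5.93 and 3.58 and 13 and 11 fragments, and both summits lay downstream of the start site in exon 1. The strongest body peak, by contrast, had the highest fold of all 305. It was 3395 bp wide at chr1:106698626-106702020, 12.9 kb into the gene, with a fold of 18.0, a -log10 q of 38.6 and 43 fragments (31.1 to 57.9), and it ranked 151 among all 122375 peaks by fold. The 201 bases around its summit are shown because it had the highest fold, and they held none of the 4 capitalized motifs.
Bcl2 intron 1 summit, chr1:106701292-106701492, plus strand: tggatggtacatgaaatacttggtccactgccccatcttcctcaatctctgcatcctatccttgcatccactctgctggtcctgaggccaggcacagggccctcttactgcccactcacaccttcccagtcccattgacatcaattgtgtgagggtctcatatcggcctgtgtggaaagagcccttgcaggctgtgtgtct
A flank peak of nearly the same fold, 17.95 with 54 fragments and a higher -log10 q of 44.7, lay 45.9 kb upstream at the promoter of Kdsr, a sphingolipid enzyme gene, so it is closer to that gene than to Bcl2. From intron 1 to the promoter of Bcl2, 17 peaks formed a run of 51.4 kb, ranked 335.

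**Figure D4:**
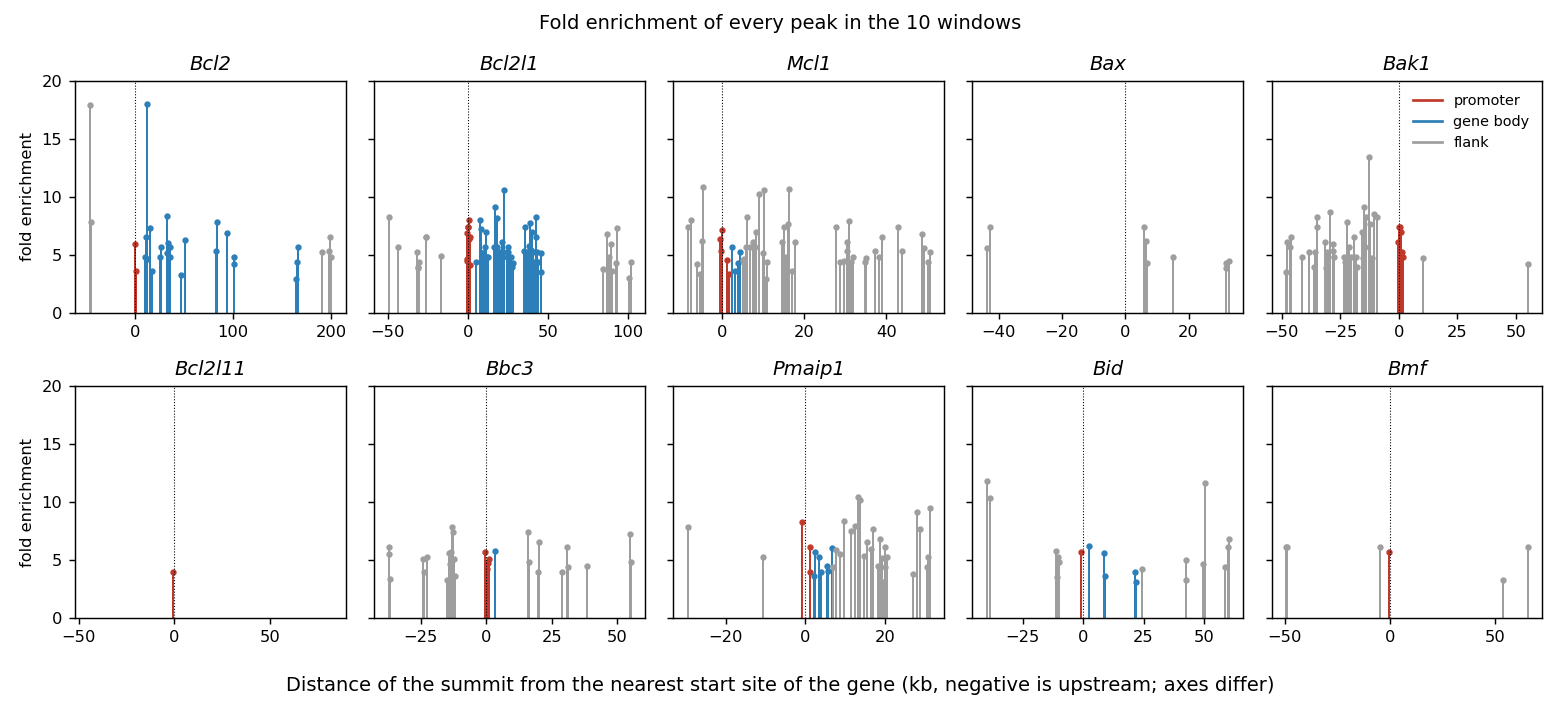
Fold enrichment (y axis) of every peak in the 10 windows by the distance of its summit from the nearest start site of the gene in kb (x axis, which differs between panels), colored by class. The Bcl2 intron 1 peak and the Kdsr promoter peak reach about 18.0, and the Bcl2l11 window shows a single peak.

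The effector genes differed. Bak1, at chr17:27019812-27028627, had 6 promoter peaks, 40 flank peaks and no body peak outside its promoter. The strongest promoter peaks, with summits 511 and 172 bp downstream of the start site, both had a fold of 7.37 and 16 fragments. The Bak1 start site lies inside Ggnbp1, and 4 of these 6 promoter peaks were also promoter peaks of Ggnbp1. In the flanks, 38 peaks lay upstream and 2 downstream. They included the strongest peak of any killer, 12.8 kb upstream, with a fold of 13.4 and 30 fragments (20.2 to 42.8), in no gene. Its summit is shown, with the E-box in capitals.
Bak1 upstream summit, chr17:27041289-27041489, plus strand: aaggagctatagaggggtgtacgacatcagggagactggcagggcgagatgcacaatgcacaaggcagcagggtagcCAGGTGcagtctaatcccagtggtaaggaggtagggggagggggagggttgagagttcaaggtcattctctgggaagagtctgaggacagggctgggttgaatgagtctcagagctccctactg
Another 6 peaks lay at the promoter of Itpr3, a calcium channel gene, so the Bak1 window also reports on its neighbour. With gaps of up to 12.5 kb joined, 50 peaks formed a run of 67.7 kb, ranked 408 of 22564, which reached past the window into Itpr3.

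Bax, at chr7:45461695-45466898, had neither promoter nor body peaks. Its 9 flank peaks lay mostly at other genes' promoters (8 of 9), among them Ftl1, which encodes a ferritin subunit, with a fold of 7.37 and 16 fragments. The absence holds at this depth only: no listed peak had fewer than 7 fragments, so weaker enrichment would not be listed. Peak names are numbered along the genome, and 2 numbers were absent between the nearest peaks outside the Bax window on either side. The absent peaks may have lain inside that window, its promoter included, or just outside it. The Mcl1 window also lacked 2 numbers, counted in the same way. Nothing is known of the absent peaks, and the other 8 windows lacked no number.

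The BH3-only genes ranged from the sparsest window to among the densest. Pmaip1 (NOXA), which p53 activates, had 3 promoter peaks, 7 body peaks and 27 flank peaks, and its density exceeded that of 98.0% of genes. Its promoter fold of 8.24 with 18 fragments (10.7 to 28.5) was the highest of the 10 genes, at a summit 831 bp upstream. Of its flank peaks 25 lay downstream, 0 lay inside or at the promoter of another gene, and the strongest reached a fold of 10.4, 13.3 kb from the start site. Within 12.5 kb of each other, 36 peaks formed a run of 42.05 kb. It ranked 409, next to the 408 of Bak1, and the runs of the other killers ranked from 2458 (Bbc3) to 20026 (Bcl2l11).

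Bbc3 (PUMA), which p53 also activates, had 4 promoter peaks, 1 body peak and 24 flank peaks. The highest promoter fold was 5.65 with 12 fragments, 551 bp upstream of the first start site, outside the promoter stretch shown above that holds the forkhead match. The other 3 promoter peaks lay in intron 1, 364 to 874 bp downstream, with folds of 4.23 to 5.05. Of the flank peaks, 15 lay in other genes, 10 of them in Sae1. The strongest flank peak, with a fold of 7.80, lay 13.1 kb upstream.

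Bid, which death receptors activate through cleavage by caspase 8, had 1 promoter peak, 5 body peaks and 14 flank peaks. The promoter peak lay 753 bp upstream, with a fold of 5.65 and 12 fragments. Stronger peaks lay far away: 11.8 with 30 fragments 39.9 kb upstream in Mical3, and 11.6 with 29 fragments 50.4 kb downstream in Bcl2l13, another gene named for the family. The peak in Mical3 also overlapped the promoter window of the noncoding RNA gene Gm43915. Of the 14 flank peaks, 8 lay in Bcl2l13 and 2 in Mical3.

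Bmf and Bcl2l11 were the sparsest. Bmf, whose protein is held at the cytoskeleton until it is released, had 1 promoter peak (fold 5.65, 12 fragments, 252 bp before one of its 3 start sites) and 5 flank peaks, of which 3 lay at the promoters of Bub1b and Srp14. At the fold of 5.65 shared by Bbc3, Bid and Bmf, 2 whole numbers of fragments solved the fold and p, of which the closer, 12, is given. Bcl2l11 (BIM), the BH3-only protein that binds all the survival proteins, had 1 peak in its whole window of 136.5 kb. It lay at chr2:128126955-128127082, between the 2 start sites, with a fold of 3.93, 8 fragments (3.45 to 15.8) and a -log10 q of 2.58, which put its fold at percentile 3.84 of the genes with a promoter peak. The next peaks lay 284 kb before the window and 27.9 kb after it. A window with at most 1 peak was not rare: 26.1% of protein-coding genes had one. With the weaker peaks removed (-log10 q below 5), Bcl2l11 lost its peak and 8 of the 10 genes kept a promoter peak.

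Motif matches within 100 bases of the summits were about as frequent in the windows as in the whole list. E-boxes lay at 72 of 305 member peaks (23.6%, Wilson 95% interval 19.2 to 28.7%) and at 21.03% of all peaks. The forkhead motif lay at 10 (3.28%, beside 3.27%), the AP-1 motif at 23 (7.54%, beside 8.05%) and the p53 decamer at 29 (9.51%, beside 7.09%). AP-1 matches lay at 9 of 157 survival peaks (5.73%, 3.05 to 10.5%) and 14 of 148 killer peaks (9.46%, 5.72 to 15.3%), and these intervals overlapped. The GC box was also less frequent at survival peaks (3.185% and 5.405%). The p53 decamer (10.83% and 8.108%), E-boxes (24.84% and 22.30%) and the forkhead motif (3.822% and 2.703%) were more frequent there. Intervals of the 2 groups overlapped for these motifs too. The homeodomain motif TAATNNNATTA, which PAX3 binds as a dimer, lay at 0 of 305, which allows a share of up to 0.984% (3 peaks of 305), and at 0.436% of all peaks.

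The wider apoptosis pathway was described with 29 other genes, of which 21 (72.4%, 54.3 to 85.3%) had a promoter peak, beside 45.6% of all genes. By role these were 6 of 7 caspase inhibitors and their antagonists, 6 of 7 genes of the death receptor arm, 5 of 6 apoptosome and executioner genes, 2 of 5 other survival genes of the family and 2 of 4 other killers. The highest promoter folds were 17.7 at Birc2 and 12.3 at Birc3, which encode the inhibitors cIAP1 and cIAP2, and 12.9 at Cflar, which encodes the caspase 8 inhibitor FLIP. All exceeded the 8.24 of Pmaip1. No promoter peak was listed at Bcl2l10, Bcl2a1a, Bcl2a1b, Bik, Hrk, Cycs, Diablo or Tnfrsf10b. Bcl2a1a, Bcl2a1b and Bcl2a1d are near-identical copies, so reads could be shared between them or lost.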

How the data were processed

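CUT&RUN read pairs were mapped to mm10. The study's methods name bowtie and an early MACS release. The submitters' processing notes instead name BWA, SAMtools and MACS2 with the builds mm10 and dm6. The list itself is labeled as MACS2 output, and the aligner behind it is not settled here. The study's methods describe discarding problematic regions and a region near Col19a1, and calling peaks per library against IgG. Whether those filters were applied to this list is not known. The deposited list gives per peak a fold enrichment (a ratio of summit fragments to local background), -log10 p, -log10 q and a score (10 times -log10 q). All were computed by the authors' caller, and the largest q was 0.0471.

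Fragments at each summit were solved from fold and -log10 p with 1 scale between the libraries (0.885, so the H3K27ac library had 1.13 times the IgG depth). At this scale 100% of peaks gave a whole number within 0.01, and 4.20% did with the scale 3% off. For 91.4% of peaks only 1 number fitted. Fragments are inferred from the caller's formula. Without molecular identifiers they are not independent molecules, so Poisson and Wilson 95% intervals cover counting error only.

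Windows used 31601 curated RefSeq start sites (GRCm38.p6) and a 1 bp overlap, with promoter before body before flank. Background shares count 21000 protein-coding genes. Recovery and classification were tested on simulated data. No test was run, since there is 1 library. The members and lists were chosen with earlier results of these data known. Every member was named with the peak of highest fold in each class, and pathway genes only if they had no promoter peak or one of the 3 highest promoter folds. Other peaks, neighbours and motifs were singled out after their values were seen. Promoter width, flank width, peak strength, summit placement and flank peaks at other promoters were varied, and GENCODE start sites were added after seeing the data. Python 3.11.15, pandas 2.3.3, SciPy 1.17.1 and pysam 0.24.0 were used.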

Additional observations from a re-analysis of the deposited data

How the results depend on the processing

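No paired analysis was possible because only 1 peak list was used. Over 9 alternatives to 5 results, 36 of 45 values kept their direction and stayed within the set range. Start sites from GENCODE, tried after seeing the data, moved none of the 5. Bax lacked a promoter peak under each of the 9. Keeping the strongest 25% of the peaks changed most: 4 members kept a promoter peak, 86 peaks remained in the windows, the survival minus killer density fell to 3.38 per 100 kb (8.31 against 4.93), and the difference in promoter fold became -0.248, with killers higher. That median rests on the 4 genes left. After removal of peaks with a -log10 q below 5, 175 were left in the windows. With 10 kb flanks the windows held 159 peaks and the promoter share was 20.1%. That share was 7.14% with 100 kb flanks and 15.1% with promoters of 5 kb either side. In each of the 9, pooled density was higher in survival genes. Depth limits the list to peaks with at least 7 fragments, and 1 library gives no spread between tumors, so no difference here has a replicate check.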
